A study of Arabidopsis thaliana with 12 samples.

Results

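FBL17 (AT3G54650) and AT2G23160 are a pair of Arabidopsis thaliana genes of the F-box family, each read by 1 of the 692 features that could be tied to a single gene, on an array of 3439 features. These 2 genes were chosen by their log2 differences in the comparison described here. Over the 692 single-gene features, these differences stood among the 10 largest increases past the threshold. They are therefore given as a description and were not tested. In the 6 kn09 samples the plants carried kn09, a mutation that makes them hypersensitive to proline and blocks the breakdown of proline in the mitochondrion, and were kept for 48 h on MS medium (Murashige and Skoog, a plant culture medium) with 100 mM proline. The 6 wild type samples were kept for 48 h on MS medium with 100 mM glucose. Both groups were of the ecotype Wassilevskija. Genotype and added compound changed together, so a difference belongs to that combination, and the shares of mutation, proline and glucose cannot be told apart. The labels speak of treated roots, but do not name the tissue that gave the RNA, the mutated gene or the plants behind each sample, so the spread between the samples of a group may be technical.

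F-box proteins are the subunits by which SCF ubiquitin ligases recognise their substrates: the F-box binds the SKP1-like subunit, and the rest of the protein holds the target that is to be marked with ubiquitin and sent to the proteasome. Plant genomes hold very large F-box families, and many members have no known target. FBL17 carries leucine-rich repeats beside its F-box and is known for removing KRP proteins, the inhibitors of cyclin-dependent kinases, which lets cells enter DNA replication. It is best studied in developing pollen, where the germ cell needs it to divide. AT2G23160 was taken as an F-box family gene when the pair was chosen. The array annotation gives it no product name, and its target is not known here.

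Both genes were brighter in kn09 on proline than in most wild type samples, and for both the wild type samples differed widely among themselves. Intensities are in the authors' linear units, which run from a floor at 0 to a ceiling of 100, and the median feature of a sample lay between 0.137 and 0.224. Features listed at 0 numbered 317 to 475 per sample in kn09 and 175 to 265 per sample in wild type. At the other end, 1 to 6 features per sample stood at the ceiling. FBL17 was listed at 0 in 0 of 6 kn09 samples and in 4 of 6 wild type samples. AT2G23160 had a value above 0 in all 12 samples.

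FBL17 had intensities of 0.0699, 0.0413, 0.172, 0.101, 0.0914 and 0.0768 in kn09 samples 1 to 6. In wild type samples 1 to 6 it had 0, 0.130, 0, 0.0389, 0 and 0. The groups overlapped because of wild type sample 2, which lay above every kn09 sample but sample 3. Over the 36 possible combinations of a kn09 and a wild type sample, the kn09 value was the higher in 31. The kn09 mean was 0.0921 ± 0.0441 (SD, n = 6). No mean is given for wild type, where 4 values are at the floor and a 0 may stand for a spot that gave no estimate.

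AT2G23160 had intensities of 0.224, 0.140, 0.270, 0.268, 0.262 and 0.188 in kn09 samples 1 to 6. In wild type samples 1 to 6 it had 0.127, 0.225, 0.0522, 0.0606, 0.0150 and 0.0193. Wild type sample 2 again reached into the range of kn09, above kn09 samples 1, 2 and 6, and the other 5 wild type samples lay below all 6 kn09 samples. The kn09 value was the higher in 33 of 36 combinations. The gene averaged 0.225 ± 0.0528 in kn09 and 0.0832 ± 0.0802 in wild type (SD, n = 6 each), a ratio of means of 2.71. The highest kn09 sample had 1.93 times the level of the lowest, whereas the highest wild type sample had 15.0 times the level of the lowest. Because of wild type sample 2, neither F-box gene had every kn09 intensity above every wild type intensity, as 9.28% of all features did.

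**Figure D1:**
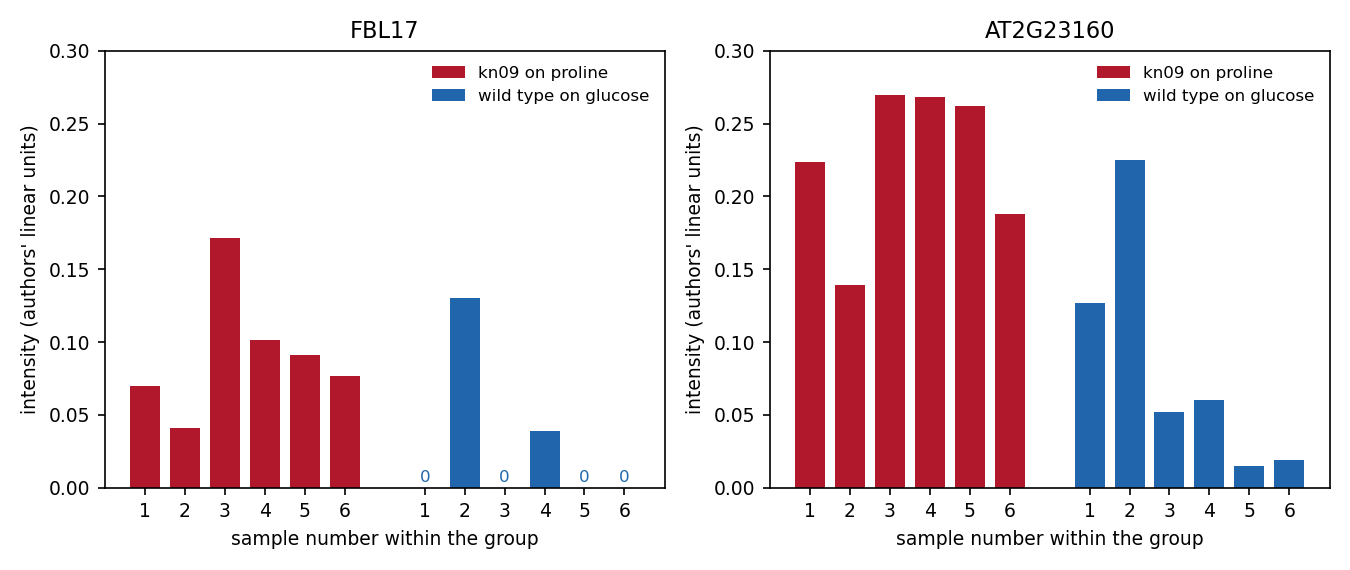
Bars give the intensity of FBL17 (left panel) and AT2G23160 (right panel), in the authors' linear units, in kn09 samples 1 to 6 (red) and wild type samples 1 to 6 (blue), with 0 printed where a value is listed at 0. Wild type sample 2 stands out in both panels, at 0.130 for FBL17 and 0.225 for AT2G23160.

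The standing of a gene among all features of its own sample does not depend on the scaling between samples. FBL17 lay above 22.9% to 49.8% of the features of a kn09 sample, with a median of 30.8%, and so was below the middle of the array in all 6. In wild type it lay above 32.5% of features in sample 2 and 11.6% in sample 4, and shared the floor in the other 4 samples, where 5.12% to 7.71% of features were listed at 0. AT2G23160 lay above 45.6% to 62.4% of features in kn09, with a median of 58.1%. In wild type it lay above 11.8% to 16.5% of features in samples 3 to 6, 33.2% in sample 1 and 50.4% in sample 2. AT2G23160 was thus a feature of middle brightness in kn09 and a dim one in 4 of the 6 wild type samples. FBL17 came just short of the middle of the array in kn09 sample 3 and was dimmer in every other sample.

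**Figure D2:**
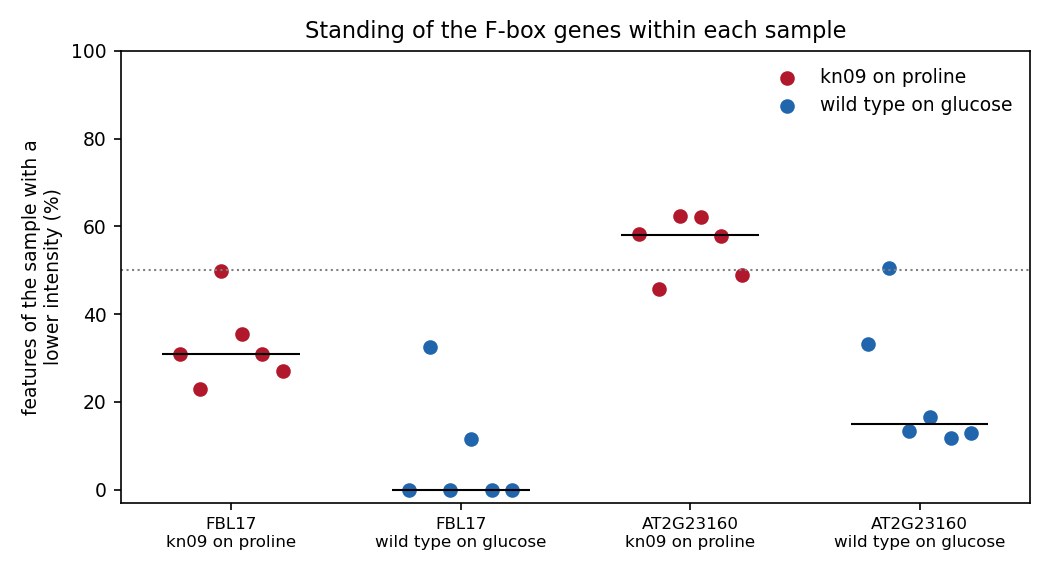
Each point is 1 sample, and the vertical axis gives the share of the 3439 features of that sample with a lower intensity, for FBL17 and AT2G23160 in kn09 on proline (red) and wild type on glucose (blue). Black lines are group medians, 30.8% and 0% for FBL17 and 58.1% and 14.9% for AT2G23160, and the dotted line marks the middle of the array.

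Zeros were more frequent in kn09 over the array as a whole, the opposite of what FBL17 showed. Of all features, 37 were listed at 0 in at least 4 kn09 samples and in no wild type sample. Only 5 features were listed at 0 in at least 4 wild type samples and in no kn09 sample, and FBL17 was the 1 single-gene feature among those 5. This pattern in part made up the difference for which FBL17 was chosen, so the count describes the gene and supports nothing about it. AT2G23160 was among the 416 single-gene features with no zero in any sample.

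The distance between the groups was smallest in samples 1 and 2 for both genes. In wild type, AT2G23160 was highest in samples 1 and 2 and at most 0.0606 in samples 3 to 6. Over the samples numbered 1 and 2, its mean intensity was 0.182 in kn09 and 0.176 in wild type, a ratio of 1.03. Over samples 3 to 6 it averaged 0.247 ± 0.0396 in kn09 and 0.0368 ± 0.0230 in wild type (SD, n = 4 each), a ratio of 6.71. For samples 3 to 6, the lowest kn09 value was 3.10 times the highest wild type value.

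FBL17 gave a similar picture. In samples 1 and 2 its intensities were 0.0699 and 0.0413 in kn09, and 0 and 0.130 in wild type, so that wild type had both the lowest and the highest of the 4 values. Over samples 3 to 6, the kn09 values ran from 0.0768 to 0.172 and the highest wild type value was 0.0389. Both genes therefore had every kn09 intensity above every wild type intensity in samples 3 to 6, as had 16.3% of all features. A smaller distance in samples 1 and 2 was common on the array: of the 484 features higher in kn09 past the threshold given below, 317, or 65.5%, had a smaller normalized log2 difference there than in samples 3 to 6, with medians of 1.06 and 1.61. The difference in samples 3 to 6 exceeded that in samples 1 and 2 by 2.37 for FBL17 and by 3.27 for AT2G23160. Such a gap was less common among these. Of the 484, 45 had one at least that of FBL17, and 13 one at least that of AT2G23160, the genes themselves included. These counts cover only features higher in kn09, and describe genes chosen from the same values. The gaps also depend on the normalized scale, where the wild type zeros of FBL17 share the floor value. For AT2G23160, normalization moved wild type samples 3 and 4 by -1.77 and -0.95, and the other wild type samples by -0.39 to -0.21. In 22 of the 484, FBL17 among them, the mean intensity of samples 1 and 2 was not higher in kn09. The split into samples 1 and 2 and samples 3 to 6 was made after the values were seen; the labels do not say what a sample number stands for.

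The wild type samples fell into 3 pairs of close likeness. Their rank correlation over all features was 0.896 for samples 1 and 2, 0.919 for samples 3 and 4, and 0.943 for samples 5 and 6, against 0.782 to 0.874 for the other combinations. In kn09 these values were 0.849, 0.838 and 0.917, against 0.816 to 0.870, so that only samples 5 and 6 stood out. The wild type levels of AT2G23160 differed by 0.0980 between samples 1 and 2, by 0.00831 between samples 3 and 4 and by 0.00427 between samples 5 and 6, while the means of these 3 pairs spanned 0.159. Those of FBL17 differed by 0.130 between samples 1 and 2 and by 0.0389 between samples 3 and 4, and were both at 0 in samples 5 and 6.

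Across all features, kn09 on proline was compared with wild type on glucose to find the transcripts whose levels differ between mutant plants fed proline and wild type plants fed glucose. Intensities were put on the log2 scale, with zeros set to the 1st percentile of the positive values of the sample, and quantile normalized, which gives every sample the same distribution of values. On that scale FBL17 was 3.30 ± 0.69 (SE) higher in kn09, and AT2G23160 was 2.70 ± 0.64 (SE) higher. For FBL17, 4 of the 6 wild type values in this fit were the floor value, so its difference, SE and rank depend on that floor. The choice of these genes fixed that both lay past an adjusted p of 0.05 in limma and upward. So did 484 of 3439 features, or 14.1%, and in either direction 27.7% of features did. The SEs and these shares treat the samples of a group as independent, although wild type samples fell into pairs. With sample pairs averaged, 202 features passed, 80 of them higher in kn09. FBL17 had the rank of 2 and AT2G23160 the rank of 10 among the 692 single-gene features ordered by this difference. AT4G13550 stood just above FBL17 with a log2 difference of 3.32, and AT5G17280 just below it with 3.15. AT5G41960 stood just above AT2G23160 with a log2 difference of 2.72, and AT5G46560, the first gene outside the 10 largest, had 2.59.

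These neighbours in the order were brighter than the F-box genes. AT5G17280 averaged 1.96 ± 0.183 in kn09 and 0.226 ± 0.0284 in wild type (SD, n = 6 each), and its log2 difference had an SE of 0.20, against 0.69 for FBL17. AT5G46560 averaged 5.83 ± 0.639 in kn09 and 1.03 ± 0.632 in wild type (SD, n = 6 each), with an SE of 0.37, against 0.64 for AT2G23160. The neighbours just above the F-box genes were not so precise. The SE was 0.62 for AT4G13550, near that of FBL17, and 0.76 for AT5G41960, above that of AT2G23160.

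The size of each difference depended on what was done with low values. For FBL17 the log2 difference was 0.57 with zeros as missing values, which leaves 2 wild type samples. It was 1.24 with a pseudocount of 0.05 added to every intensity, an amount of the order of the gene's own level. Without normalization the difference of FBL17 was 2.73. For AT2G23160, which has no zeros of its own, it was 1.47 with that pseudocount and 2.01 without normalization. Normalization moved the log2 level of AT2G23160 by -0.13 to 0.18 in the kn09 samples and by -1.77 to -0.21 in the wild type samples. The largest shift was in wild type sample 3, where a deposited log2 level of -4.26 became -6.03. Leaving out wild type samples 1 and 2 gave log2 differences of 4.01 for FBL17 and 3.94 for AT2G23160, and leaving out wild type sample 2 alone gave 4.03 and 3.29. Both genes kept a higher level in kn09 in every setting that could be computed for them. They had been chosen for this rise, and settings that change only blocks or the variance model cannot alter its size.

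**Figure D3:**
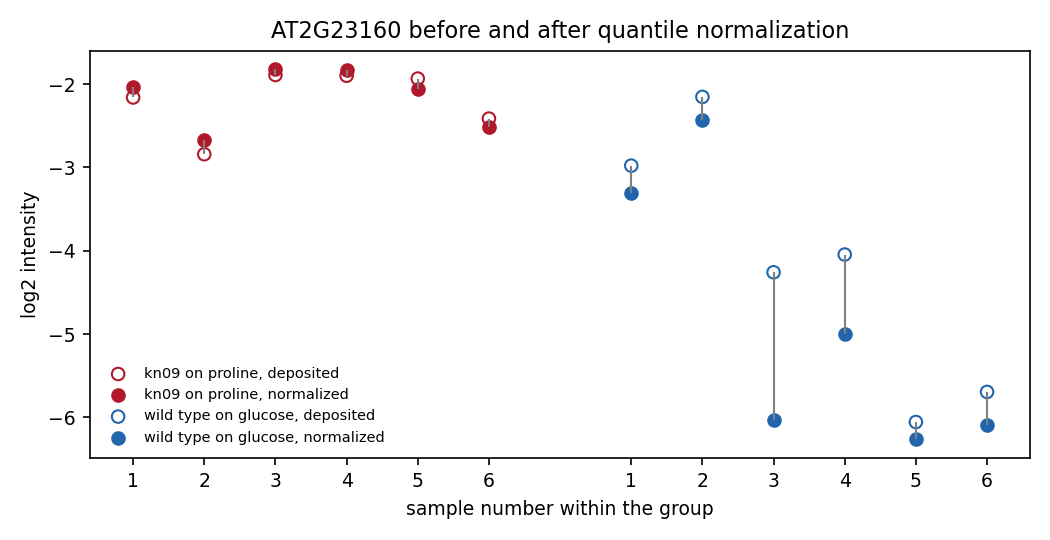
The vertical axis gives the log2 intensity of AT2G23160 in kn09 samples 1 to 6 (red) and wild type samples 1 to 6 (blue), as deposited (open) and after quantile normalization (filled), joined by a grey line. The kn09 values moved by at most 0.18, and wild type sample 3 moved by -1.77.

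**Figure D4:**
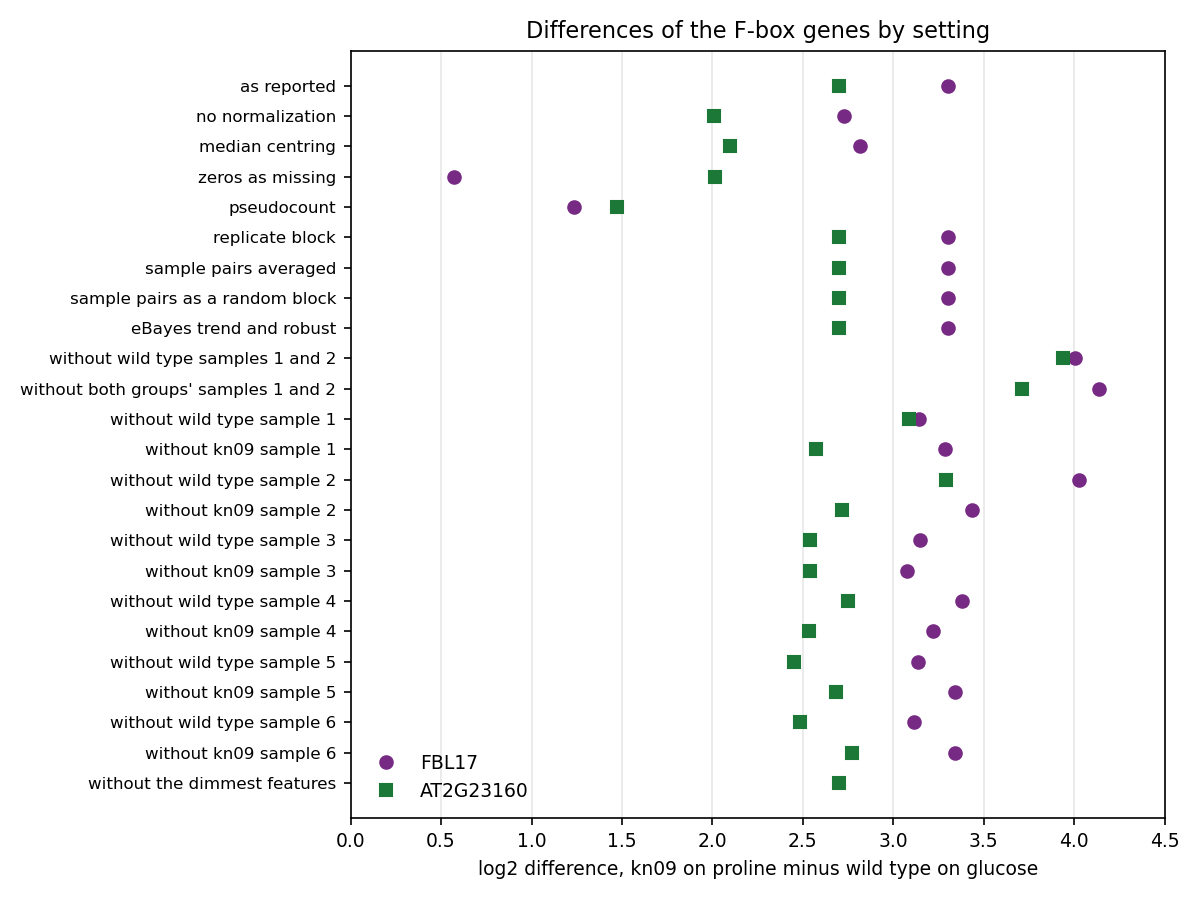
Points give the log2 difference, kn09 on proline minus wild type on glucose, of FBL17 (circles) and AT2G23160 (squares) for the reported fit and for each alternative, one per line. All points lie above 0, with FBL17 between 0.57 and 4.14 and AT2G23160 between 1.47 and 3.94; FBL17 has no point without the dimmest features, since it is one of them.

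Genes with the profile most like that of each F-box gene were taken as the 5 single-gene features with the highest Pearson correlation of normalized log2 values over the 12 samples, a description in which the points share their groups and sample pairs. The profile of FBL17 includes 4 wild type zeros, all set to the same floor value. AT2G23160 itself was the third closest to FBL17, with r = 0.90. Both genes were chosen for a rise in these same values, which by itself raises r. Whether their levels are linked was therefore not tested. The closest was AT5G13260 with r = 0.93, which had 0.182 ± 0.0400 in kn09 and 0.0985 ± 0.0516 in wild type (SD, n = 6 each). AT4G31530 had r = 0.90, AT3G44570 had r = 0.89 and AT4G27510 had r = 0.88. AT4G31530 was among the brightest features of the array, at 79.9 to 100 in kn09, the upper end being the ceiling, and at 44.7 to 70.8 in wild type.

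The 5 features closest to AT2G23160 had r between 0.95 and 0.97, and FBL17 was in place 18. AT3G57120 came first, with 3.16 ± 0.329 in kn09 and 1.65 ± 0.403 in wild type (SD, n = 6 each). AT1G49850 had 2.49 ± 0.578 in kn09 and 1.03 ± 0.839 in wild type. AT4G19900 had 10.4 ± 0.551 in kn09 and 4.31 ± 3.01 in wild type. AT2G30100 had 3.05 ± 0.703 in kn09 and 0.615 ± 0.612 in wild type, and AT5G42680 had 1.83 ± 0.349 in kn09 and 0.730 ± 0.408 in wild type. Each of these 5 was brighter than AT2G23160 in both groups, and in each the coefficient of variation was larger in wild type than in kn09.

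Few genes of the machinery around the F-box genes could be identified among the single-gene features. Of 23 listed genes of the SCF core, cullin regulation and the COP9 signalosome, 0 had a single-gene feature, and the same held for 0 of 18 well-known F-box genes and 0 of 68 cell cycle and DNA replication genes, the KRP inhibitors and E2F factors among them. Searches of gene symbols and synonyms for F-box, ubiquitin and cell cycle terms also returned 0 further single-gene features; most of these features carry only a locus number in the tables used, without a product description, so the searches could miss genes of these kinds. SAP (STERILE APETALA, AT5G35770), an F-box protein that controls organ growth and flower development, was noticed by its symbol after the annotation had been seen. SAP had 0, 0.0186, 0.0864, 0.164, 0.0399 and 0.00221 in kn09 samples 1 to 6, and 0.0187, 0.0608, 0.0863, 0.0487, 0 and 0 in wild type samples 1 to 6. The groups overlapped almost fully, and the log2 difference of 1.09 ± 1.01 (SE) did not pass in limma (adjusted p = 0.459).

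Among the 10 loci on either side of each F-box gene in the TAIR10.1 gene order, 1 had a single-gene feature. This was AT3G54680, 3 loci from FBL17, which had 0.0333, 0, 0.102, 0.199, 0.155 and 0.0497 in kn09 samples 1 to 6 and 0.191, 0.129, 0.273, 0.134, 0.0732 and 0.0908 in wild type samples 1 to 6. Its log2 difference was -1.04 ± 0.72 (SE) and did not pass in limma (adjusted p = 0.311). The groups overlapped, and the mean of this dim neighbour of FBL17 was the lower one in kn09.

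The tissue in the samples could be checked only in part. Of 9 root markers and 5 pollen markers, 0 had a single-gene feature. Of 6 green tissue markers 3 were measured, the antenna gene LHB1B2, the photosystem I gene PSAN and the Calvin cycle gene PRK, and all 3 fell in kn09 on proline, with adjusted p of at most 1.76e-04 in limma, where 13.6% of all features fell; their fall was known from earlier results of these data when the list was written. Their summed intensity was 5.69 to 8.94 in kn09 and 32.3 to 51.3 in wild type. Most of this sum was LHB1B2, with means of 5.88 in kn09 and 35.3 in wild type. PSAN averaged 1.48 in kn09 and 7.65 in wild type, and PRK 0.334 and 1.34. Fewer cells of a type and less RNA per cell cannot be told apart in such samples, and the part of this shift in the levels of FBL17 and AT2G23160 was not tested.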

How the data were processed

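The deposited table gives 1 intensity per feature and sample, which the authors had scaled linearly to run between 0 and 100. Scanner, background correction, filters and genome build were not given in the sources used here, nor was the normalization. Groups and sample numbers came from the sample titles. Features were named through GEO's platform annotation, updated to TAIR10.1 symbols through Entrez identifiers (690 of 692 matched); no coordinates are printed. Each zero took the 1st percentile of its sample's positive values, log2 was taken without a pseudocount and values were quantile normalized. All 3439 features were fitted in limma 3.58.1 under R 4.3.3 with group as the only term, two-sided, with Benjamini-Hochberg adjustment at 0.05; the fit was tested on simulated data. Standard errors come from this fit, and means and SDs are of deposited intensities. The genes and lists were chosen with earlier results of these data known. Named genes were the F-box pair, their neighbours in the order of differences and in gene order, the 5 most similar profiles of each, and measured members of the lists; SAP was added after the annotation was seen. Alternatives concerned normalization, zeros, dim features, blocks, variance model and left-out samples. Array number limits the precision.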

Additional observations from a re-analysis of the deposited data

Results flagged for a closer look

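In 40 sets of 6 values, over 20 genes and both groups, 3 held a sample far from the other 5. Chance gives about 1 in 20, so a few such sets would arise by chance. The FBL17 intensity of wild type sample 2 was 0.130, whereas the remaining wild type samples had 0 to 0.0389. AT4G19900, one of the profiles most like AT2G23160, stood at 11.4 in kn09 sample 3, above 9.89 to 10.4 in the other kn09 samples. AT5G17280, next to FBL17 in the order of differences, stood at 2.30 in kn09 sample 2, above 1.74 to 1.95 in the others.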

How the results depend on the processing

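FBL17 kept its direction under 22 alternatives and AT2G23160 under 23, after both were chosen for a large rise in these data. Blocks, averaged pairs and another variance model could not move the differences from 3.30 and 2.70. Dropping the dimmest features could not move that of AT2G23160 either. These settings bear only on the count of features past the threshold. Their log2 differences moved by more than 1 SD between replicates with zeros as missing values for FBL17 (0.57), with a pseudocount (1.24 for FBL17, 1.47 for AT2G23160) and without wild type samples 1 and 2 for AT2G23160 (3.94). Leaving out 1 sample at a time gave 3.07 to 4.03 for FBL17, 2.45 to 3.29 for AT2G23160, and 789 to 1010 features past the threshold, against 951. That count was 202 with sample pairs averaged and 620 with sample pairs as a random block. Without samples 1 and 2 of both groups, an alternative chosen after seeing the data, the log2 differences were 4.14 for FBL17 and 3.71 for AT2G23160. SAP turned to -0.15 with zeros as missing values. FBL17 is among the dimmest 25% of features and had no value without them. With the replicate number as a block, 815 features passed and the differences stayed at 3.30 and 2.70. Deviations of same-numbered samples correlated only by 0.023 to 0.094. Yet 6 of 6 kn09 samples correlated best with the wild type sample of their own number. So did 5 of 6 wild type samples with the kn09 sample of theirs. This is a hint from the data, not from the design, and whether the numbers mark pairs across the groups was not tested. The F-box, ubiquitin and cell cycle lists had no measured member to recompute. The floor at 0 limits how far below kn09 the wild type level of FBL17 can be measured.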
